A study of Mus musculus with 9 samples.

Results

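The genes described here were 38 genes of glycolysis and of the response to low oxygen, taken by name from a table of 54456 gene names: 24 for glucose uptake, glycolysis and the handling of lactate and pyruvate, and 14 regulators and targets of the hypoxia-inducible factors (HIF). All 38 were in the table, and 37 passed the filter on low counts. The samples came from wild-type mouse mammary epithelium. Its basal and luminal cells had been separated by cell sorting and built into aggregates that were purely basal, purely luminal or a 50% mixture, with 3 libraries of each of the 3 kinds. Every aggregate lay in 80% Matrigel beside heparin sulfate beads of 100 to 150 µm loaded with FGF10, a growth factor that attracts mammary epithelium, and had migrated for 56 h by the treatment label and 55 h by the sample titles. All groups had FGF10 and no oxygen level was varied, so no response to either can be read from the values. The sources used here give neither the age of the mice nor whether the libraries of a kind came from separate animals or cultures, so the p-values measure the spread between these libraries, which may be technical.

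Glycolysis turns glucose into pyruvate. Glucose enters through transporters of the Slc2a family, is trapped by hexokinases, committed to breakdown by phosphofructokinase and split by aldolase, and the enzymes from glyceraldehyde-3-phosphate dehydrogenase to pyruvate kinase then release ATP. Lactate dehydrogenase converts pyruvate to lactate, monocarboxylate transporters carry lactate across the membrane, and pyruvate dehydrogenase kinases hold pyruvate back from the mitochondria. HIF is a pair of an oxygen-sensitive alpha subunit (Hif1a or Epas1) and a stable partner. Prolyl hydroxylases of the Egln family mark the alpha subunit for destruction when oxygen is present, and without that mark HIF binds short motifs near many of the glycolysis genes and near genes such as Vegfa and Bnip3. Since the alpha subunit is controlled mainly as protein, its mRNA level is not a measure of HIF activity.

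The libraries held 15585324 to 19164405 counts, so that 3 counts, the most that a library with none may have missed, correspond to 0.152 to 0.187 CPM (counts relative to the library's TMM-scaled size). The summed level of 8 basal markers was 9220 to 10600 CPM in basal, 1570 to 2810 in luminal and 6250 to 7390 in mixed libraries, and that of 10 luminal markers was 3560 to 4010, 7800 to 10700 and 9820 to 11400, with no marker of either list at 0 in every library. Fibroblast markers summed to at most 38 CPM, leukocyte markers to at most 65 and endothelial markers to at most 5.77 in any library, and adipocyte markers to at most 0.436. Erythroid markers summed to 29.4 to 42.7 CPM in mixed libraries, 18.9 in basal 2 and 1.74 to 3.62 in the other 5 libraries. Leukocyte markers summed to 47.2 CPM in basal 2 against 4.57 and 4.02 in basal 1 and basal 3. Basal 2 and the mixed libraries share a code in the count table, described next. Cell cycle genes differed far more: 28 of 28 were lower in luminal than in basal libraries and higher in mixed than in luminal ones, with sums of 270 to 297 CPM in luminal, 3640 to 4780 in basal and 2860 to 3260 in mixed libraries. The share of counts from mitochondrially encoded genes was 1.03% to 1.07%, 2.04% to 2.18% and 2.68% to 2.83% in the same order. The part of proliferation, mitochondrial RNA or other cell types in the differences described here was not tested. In whole aggregates, fewer cells of a type and less RNA per cell cannot be told apart.

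The column names of the count table start with 3 different codes, called code series here. Basal 2 and all 3 mixed libraries carried code A. Code B was carried by basal 1, basal 3 and luminal 1, and code C by the remaining luminal libraries, 2 and 3. What the codes stand for is not stated. With the series as a term in the fit, luminal and basal libraries are compared within series B, where luminal 1 is the only luminal library, and mixed and basal libraries within series A, against basal 2 alone. Kind of aggregate and code series thus overlap in large part, and a difference lost in that fit cannot be told apart from one between series. Mixed and luminal libraries share no series and are then linked only through basal ones. Differences from that fit are given as series-adjusted. Basal 2 also stood apart from its group: its log2 CPM correlated across genes with those of basal 1 and basal 3 at r = 0.927 and 0.936, while the latter correlated with each other at 0.986.

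Between luminal and basal aggregates, 18 of the 37 tested genes were higher in luminal libraries (48.6%) and 4 were lower (10.8%) at an adjusted p under 0.05, against 12.8% and 14.4% of all 18051 genes tested. The median log2 difference was 0.56 over the tested genes of the list and -0.02 over all genes. The genes that were higher in luminal aggregates were spread over the roles: 7 of 11 in upper glycolysis, 3 of 5 in lactate and pyruvate handling, 1 of 4 HIF regulators and 7 of 10 HIF targets, but 0 of 6 in lower glycolysis. Within the code series, and so with luminal 1 against basal 1 and basal 3, 13 genes were higher and 1 was lower, against 7.09% and 6.8% of all genes. All 22 differences kept their sign and 14 remained past the threshold, while Pdk1, Kdm3a, Ldhb, Ddit4, Pfkl, Hif1a, Ndrg1 and Epas1 no longer passed it. Without basal 2, 19 genes were higher and 4 lower, against 12% and 12.4% of all 18960 genes then tested. For 21 genes all 3 luminal values lay above the basal ones and for 4 below them, against 23.2% and 23.4% of all genes.

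In mixed aggregates 12 genes differed from basal and 20 from luminal ones. Against basal libraries 8 genes were higher (21.6%) and 4 lower (10.8%), beside 6.39% and 7.33% of all genes, with a median log2 difference of 0.13 against -0.07 over all genes. Against luminal libraries 2 genes were higher (5.41%) and 18 lower (48.6%), beside 15.2% and 14.2% of all genes, with a median of -0.57 against -0.05. For 9 genes all mixed values lay above the basal ones and for 7 below them, against 14.5% and 18.7% of all genes, and for 3 and 20 genes above and below the luminal ones, against 25% and 26.1%. With basal 2 left out, the mixed libraries had 10 genes above and 6 below the threshold against basal ones, and 2 and 19 against luminal ones. Over all genes the calls rose too in that fit, to 13.9% and 13.1% against basal and 17.9% and 17.8% against luminal libraries. The 3 comparisons share their libraries and are therefore not independent of each other. Series-adjusted, the comparison of mixed with basal libraries gave 4 higher and 2 lower genes (2.93% and 1.79% of all genes), and 4 of the 12 calls remained: Hk2, Aldoa, Aldoc and Bnip3. In the comparison of mixed with luminal libraries, where the series leave no direct contrast, 0 were higher and 2 lower (2.05% and 0.67% of all genes), namely Aldoa and Vegfa. Of the 20 calls there, 19 kept their sign.

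**Figure D1:**
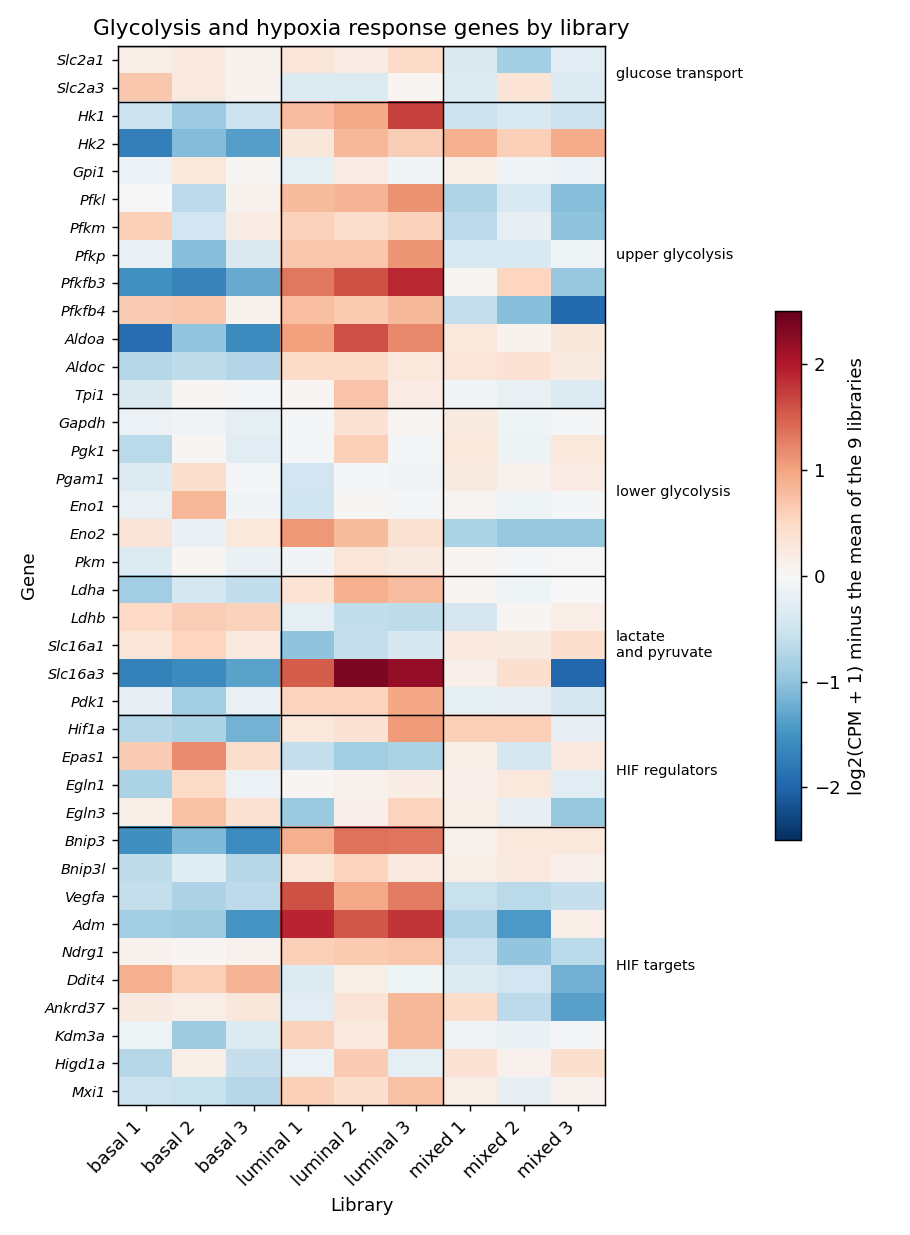
Log2(CPM + 1) of the 38 genes in each of the 9 libraries, as the difference from the gene's mean over the 9 libraries (colour scale in log2 units), with genes in rows grouped by role and libraries in columns. The 3 luminal columns are red for Aldoa, Pfkfb3, Slc16a3, Bnip3, Vegfa and Adm, and the rows from Gapdh to Pkm are pale except Eno2.

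**Figure D2:**
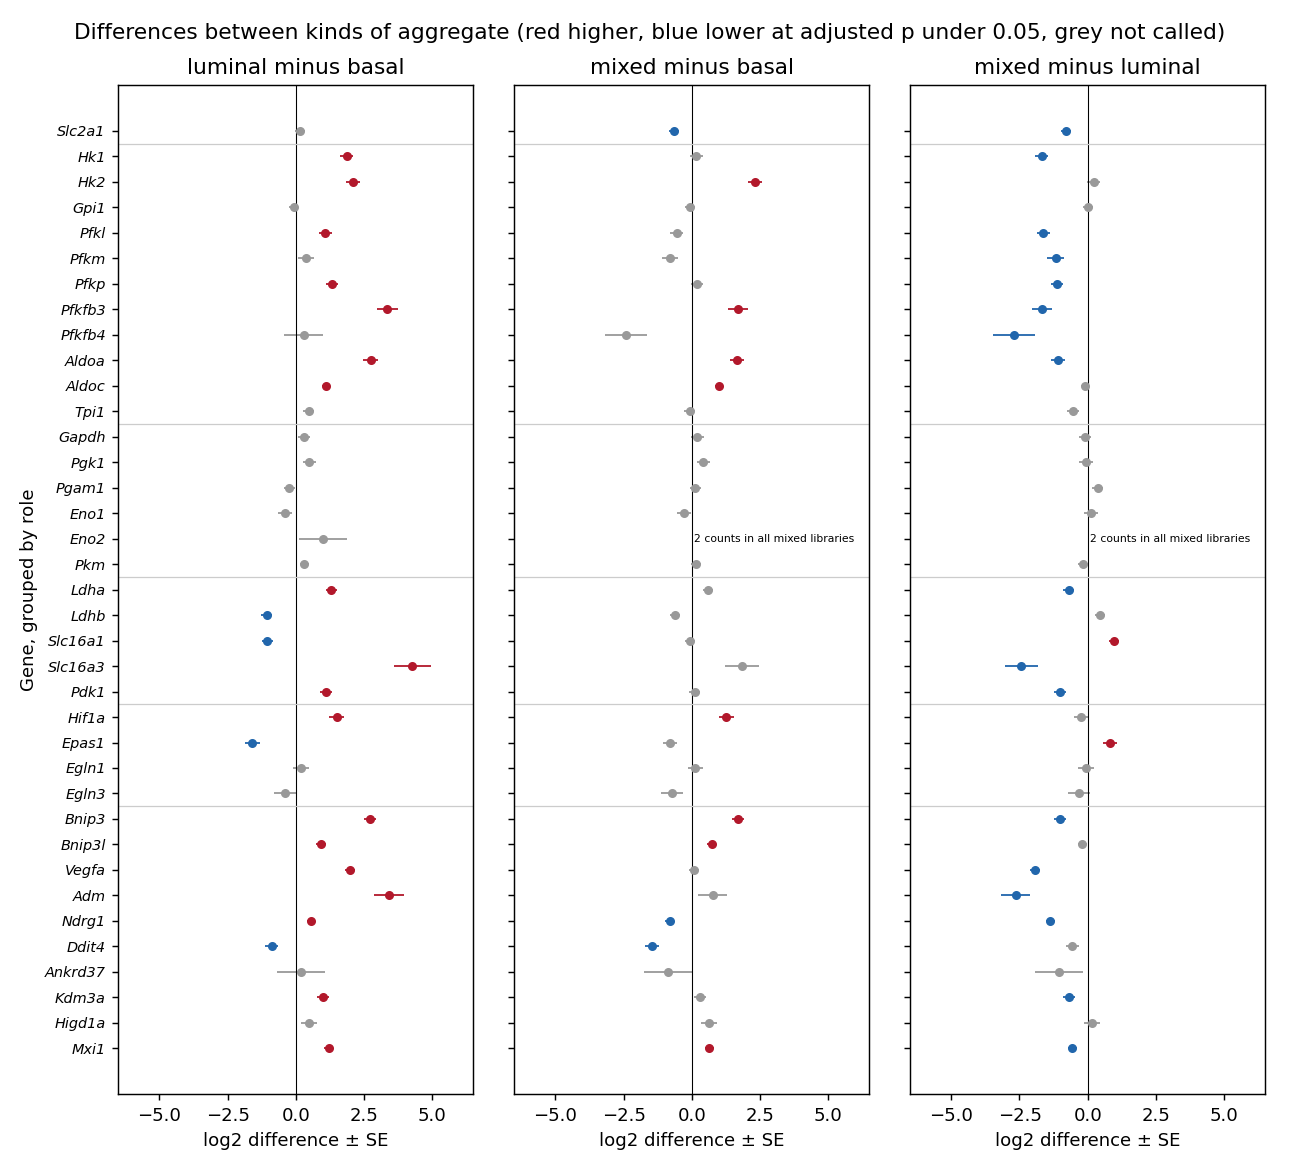
Log2 difference with its standard error for the tested genes in the 3 comparisons (x axes, log2 units), grouped by role from glucose transport at the top to HIF targets at the bottom. Red points were higher and blue points lower at an adjusted p under 0.05, grey points did not pass, and Eno2 is given by its counts in the mixed comparisons because the mixed libraries held 2 counts in all.

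The upstream sequences of the 5 genes with the largest log2 differences between luminal and basal aggregates are shown because HIF is known to bind the letters ACGTG or GCGTG. Each is the 250 bases before the first listed transcription start of the gene in RefSeq (GRCm38.p6, an older build than the mm39 of the count table), read 5′ to 3′ in the direction of the gene, with ACGTG or GCGTG on either strand in capitals. On the opposite strand these read CACGT and CACGC, and CACGTG is a match on both strands. Slc16a3 is at chr11:120948817-120949066 (plus strand), Adm at chr7:110627407-110627656 (plus strand), Pfkfb3 at chr2:11553930-11554179 (minus strand), Aldoa at chr7:126800448-126800697 (minus strand) and Bnip3 at chr7:138909507-138909756 (minus strand).
Slc16a3: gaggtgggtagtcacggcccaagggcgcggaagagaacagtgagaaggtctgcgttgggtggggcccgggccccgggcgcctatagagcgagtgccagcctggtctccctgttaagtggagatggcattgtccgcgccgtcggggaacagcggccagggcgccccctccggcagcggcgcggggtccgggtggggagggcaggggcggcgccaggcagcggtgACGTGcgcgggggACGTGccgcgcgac
Adm: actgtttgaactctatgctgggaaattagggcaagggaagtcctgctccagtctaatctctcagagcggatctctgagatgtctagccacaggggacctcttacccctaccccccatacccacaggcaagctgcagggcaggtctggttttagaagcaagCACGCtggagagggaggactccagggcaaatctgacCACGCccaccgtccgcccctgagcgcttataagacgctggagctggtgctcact
Pfkfb3: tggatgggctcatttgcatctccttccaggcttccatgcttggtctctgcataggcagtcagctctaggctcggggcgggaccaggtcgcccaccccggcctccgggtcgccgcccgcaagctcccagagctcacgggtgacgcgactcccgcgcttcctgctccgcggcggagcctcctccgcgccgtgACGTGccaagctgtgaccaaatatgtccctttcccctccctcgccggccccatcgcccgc
Aldoa: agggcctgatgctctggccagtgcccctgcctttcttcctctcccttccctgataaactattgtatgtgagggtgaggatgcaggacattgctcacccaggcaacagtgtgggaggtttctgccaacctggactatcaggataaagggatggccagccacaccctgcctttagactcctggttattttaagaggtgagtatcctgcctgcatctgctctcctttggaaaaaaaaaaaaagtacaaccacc
Bnip3: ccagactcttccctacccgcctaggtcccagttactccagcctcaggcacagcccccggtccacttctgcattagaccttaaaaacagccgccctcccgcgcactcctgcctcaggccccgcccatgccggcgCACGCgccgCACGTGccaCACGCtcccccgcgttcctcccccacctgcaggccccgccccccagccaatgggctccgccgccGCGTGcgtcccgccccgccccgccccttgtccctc
The Bnip3 sequence held 5 matches, including CACGTG, and that of Slc16a3 held 2 copies of ACGTG within 27 bases of the start. Adm held 2 copies of CACGC and Pfkfb3 held 1 match, with 3 before its second listed start. Aldoa held 0, and the windows before its other 2 listed starts, which overlap, held 1 and the same match. Sequences were found for 34 of the 38 genes, and 31 of the 34 (91.2%) had ACGTG or GCGTG in at least 1 of their listed promoters, against 41.5% of 27025 genes. Genes differ in how many promoters are listed. Counted by promoter, the shares were 76.9% of 52 in the list and 38.6% of all 32851. The motif was not limited to genes that differed: it stood in 16 of 16 genes that were higher in luminal than in basal aggregates, 3 of 3 that were lower and 12 of 15 that did not pass the test. CACGTG was found in 6 of the 34 genes (17.6%) and in 6.86% of all genes. Over the same 250 bases, the promoters of the list had a median GC content of 60.4% against 52.4% for all promoters, and the share was not compared with promoters of like GC content. A match describes the letters and does not show that HIF binds there.

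Transcripts of the main glucose transporter were lowest in mixed aggregates. Slc2a1, the main glucose transporter of epithelium, was counted at 124, 132 and 117 CPM in basal libraries, 137, 128 and 154 in luminal and 86.6, 60.7 and 92.3 in mixed ones. All 3 mixed values were below all 6 others. The log2 difference was 0.17 ± 0.18 (SE, 3 libraries a group throughout; adjusted p = 0.56) between luminal and basal, -0.64 ± 0.18 (adjusted p = 0.038) between mixed and basal, and -0.81 ± 0.18 (adjusted p = 0.0081) between mixed and luminal libraries. Series-adjusted, the values against basal and luminal were -0.72 and -0.90 with adjusted p = 0.15 and 0.33, and the first of these calls also ended without basal 1, basal 3, luminal 1, mixed 1 or mixed 2. Slc2a3, a high-affinity transporter, was too low to be tested, at 0 counts in 4 libraries and at most 1.01 CPM.

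In upper glycolysis, the 2 hexokinases were both higher in luminal than in basal aggregates, but only Hk2 was high in mixed ones as well. Hk1, the constitutive enzyme (chr10:62104634-62215687, mm39), had 150, 115 and 150 CPM in basal, 372, 422 and 711 in luminal and 151, 166 and 150.0 in mixed libraries. Mixed values overlapped the basal ones: the log2 difference was 1.86 ± 0.24 (adjusted p = 0.00014; series-adjusted 1.31, adjusted p = 0.0098) between luminal and basal, and 0.17 ± 0.23 (adjusted p = 0.66) between mixed and basal. Between mixed and luminal libraries it was -1.69 ± 0.24 (adjusted p = 0.00059). Series-adjusted, that difference was -0.87 and no longer passed, and the one between mixed and basal was 0.44. Hk2, the inducible and HIF-responsive form (chr6:82702006-82751435), had 6.14, 10.0 and 8.05 CPM in basal, 27.6, 40.9 and 35.1 in luminal and 42.2, 34.6 and 43.6 in mixed libraries. The basal values stood apart from all others, with log2 differences of 2.10 ± 0.24 (luminal, adjusted p = 6.1e-05) and 2.31 ± 0.25 (mixed, adjusted p = 0.00018). Series-adjusted these were 1.96 and 2.0, both past the threshold. Hk2 was the only hexokinase gene on the list whose mixed and luminal values overlapped, with a log2 difference of 0.22 ± 0.23 (adjusted p = 0.51).

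Phosphofructokinase, the committing step, is built from liver, muscle and platelet-type subunits (Pfkl, Pfkm, Pfkp). Pfkl had 197, 126 and 211 CPM in basal, 341, 358 and 432 in luminal and 118, 152 and 94.4 in mixed libraries, a log2 difference of 1.08 ± 0.23 between luminal and basal (adjusted p = 0.0049; series-adjusted 0.74, adjusted p = 0.11). Pfkp had 99.7, 53.7 and 87.6 CPM in basal, 181, 183 and 242 in luminal and 85.8, 86.6 and 104 in mixed libraries, a difference of 1.33 ± 0.23 (adjusted p = 0.0011; series-adjusted 0.95, adjusted p = 0.022). Basal 2 was the lowest basal library for all 3 subunits. Pfkm had 32.0, 14.6 and 23.8 CPM in basal, 31.5, 28.7 and 31.5 in luminal and 12.9, 17.8 and 9.86 in mixed libraries, and its difference of 0.38 between luminal and basal did not pass the test (adjusted p = 0.4). All 3 were lower in mixed than in luminal libraries, by log2 differences of -1.64, -1.18 and -1.13 for Pfkl, Pfkm and Pfkp, but the series-adjusted values were -0.79, -0.29 and -0.17 with adjusted p = 0.43, 0.92 and 0.93. The Pfkm call also ended without mixed 3 (adjusted p = 0.051).

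Pfkfb3 and Pfkfb4 make and remove fructose 2,6-bisphosphate, the strongest activator of phosphofructokinase, and Pfkfb3 is the form that mostly makes it. Pfkfb3 (chr2:11476244-11558888) had 4.31, 3.75 and 5.29 CPM in basal, 36.6, 44.4 and 55.3 in luminal and 14.9, 21.1 and 6.81 in mixed libraries. The 3 groups did not overlap, and luminal libraries were 10.2-fold above basal ones (log2 difference 3.35 ± 0.39, adjusted p = 5.5e-05; series-adjusted 2.93, adjusted p = 0.005). Mixed libraries were higher than basal ones by 1.68 ± 0.37 (adjusted p = 0.013; series-adjusted 1.93, adjusted p = 0.11), a call that ended without basal 1 (adjusted p = 0.052), and lower than luminal ones by a log2 difference of -1.67 (adjusted p = 0.0062). Pfkfb4 had 5.28, 5.46 and 3.28 CPM in basal, 5.77, 5.34 and 6.04 in luminal, but 1.66, 0.923 and 0.0545 in mixed libraries, the last of these from 1 read pair. It passed the test against luminal libraries (-2.70 ± 0.77, adjusted p = 0.023; series-adjusted -3.06, adjusted p = 0.47), ending without luminal 1, luminal 3 or mixed 2, and not against basal ones (adjusted p = 0.059), where it passed without mixed 1 or mixed 3 (adjusted p = 0.043 and 0.036). With all libraries the difference from basal passed under DESeq2 (adjusted p = 0.0049), limma-voom (0.027), library size scaling (0.046) and no filter on low counts (0.0051).

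Aldoa had the highest level per length of the upper pathway in each kind of aggregate, and a graded difference. Aldoa (chr7:126394406-126408280) was counted at 717, 1358 and 883 CPM in basal, 5460, 8194 and 6122 in luminal and 3225, 2853 and 3247 in mixed libraries. The 3 kinds did not overlap in any pair. Luminal libraries were 6.69-fold and mixed ones 3.15-fold above basal ones, with log2 differences of 2.74 ± 0.26 (adjusted p = 1.4e-05) and 1.66 ± 0.25 (adjusted p = 0.0017). Series-adjusted, these were 2.77 and 1.19 (adjusted p = 7.2e-05 and 0.022), and the difference between mixed and luminal libraries, -1.08 ± 0.25 (adjusted p = 0.0087), was -1.58 (adjusted p = 0.03). Aldoc, the brain-type aldolase, had 83.2, 87.9 and 82.6 CPM in basal, 192, 192 and 165 in luminal and 171, 178 and 161 in mixed libraries. Here mixed values overlapped the luminal ones: the differences from basal were 1.11 ± 0.15 (adjusted p = 0.00015) and 1.01 ± 0.14 (adjusted p = 0.0012), and that between mixed and luminal was -0.11 ± 0.14 (adjusted p = 0.61). Gpi1, which converts glucose 6-phosphate to fructose 6-phosphate, ranged from 107 to 153 CPM over all 9 libraries. Tpi1, which interconverts the triose products of aldolase, had log2 differences of 0.47 (luminal against basal, adjusted p = 0.12) and -0.54 (mixed against luminal, adjusted p = 0.066). Neither passed the main test in any of the 3 comparisons, while the latter difference of Tpi1 passed without basal 1 or basal 2 (adjusted p = 0.045 and 0.037). With all libraries it passed under DESeq2 (adjusted p = 0.014), DESeq2 size factors (0.043), library size scaling (0.037) and no filter on low counts (0.033).

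**Figure D3:**
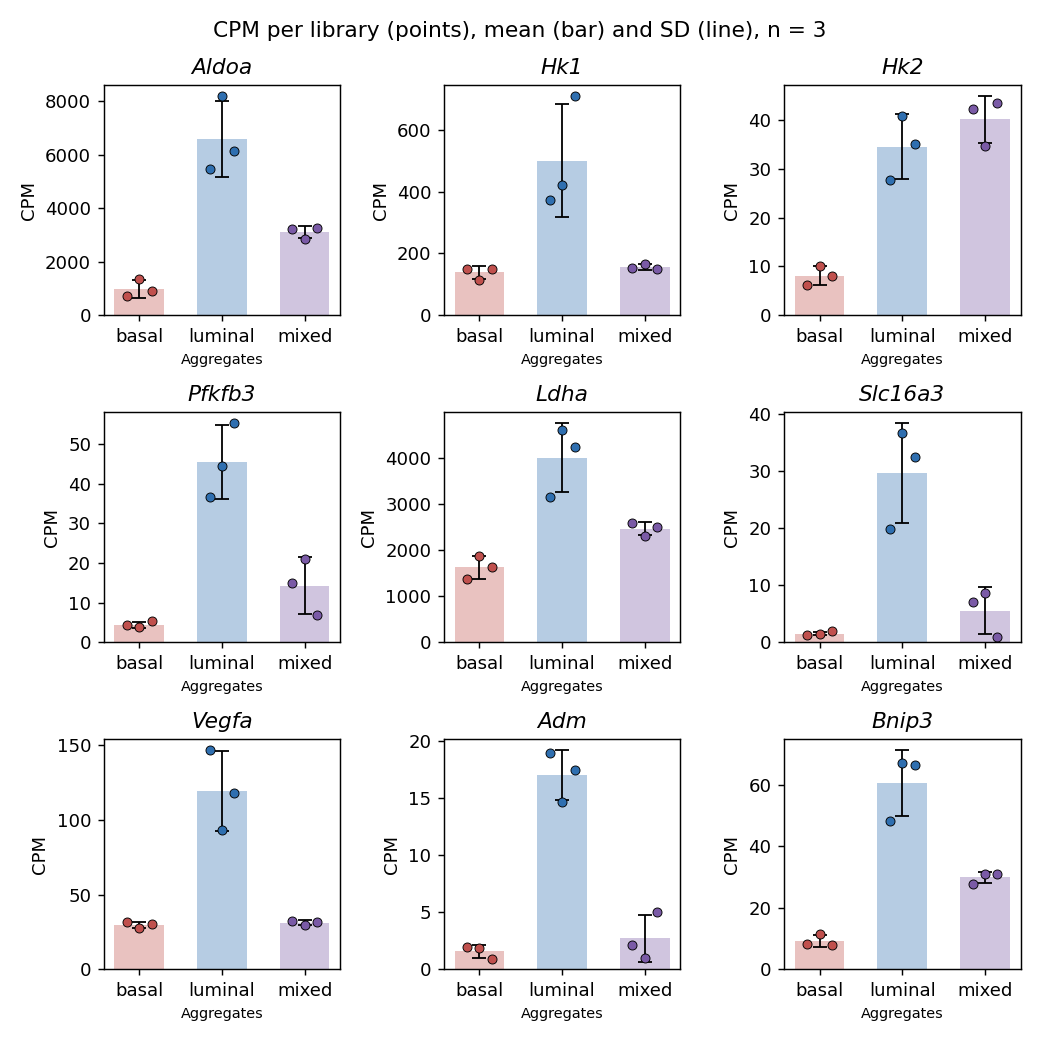
CPM of 9 genes in each library (points, y axes starting at 0), with the mean of 3 libraries as a bar and its SD as a line. Luminal libraries lie above both other groups for 8 of the 9 genes, and for Hk2 the mixed libraries overlap them.

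In lower glycolysis, the payoff steps, none of the 6 genes passed the test between luminal and basal aggregates, with log2 differences of 0.31 for Gapdh, 0.49 for Pgk1, -0.24 for Pgam1, -0.41 for Eno1, 0.99 for Eno2 and 0.31 for Pkm, and adjusted p-values from 0.17 upwards. Pkm, pyruvate kinase, was even, at 1900, 2485 and 2144 CPM in basal, 2307, 2993 and 2806 in luminal and 2485, 2334 and 2417 in mixed libraries. Eno1, the common enolase, had 313, 630 and 340 CPM in basal libraries, of which basal 2 was the highest of all 9, and 252 to 376 in the others. Its series-adjusted difference between mixed and basal libraries, which rests on basal 2, was -0.85 (adjusted p = 0.019), against -0.29 without that term. Eno2, the neuronal enolase and a HIF target, had 28, 13 and 23 counts in basal libraries and 57, 39 and 24 in luminal ones, but 2, 0 and 0 in mixed libraries. It was called lower in mixed than in basal (adjusted p = 0.02) and luminal libraries (adjusted p = 0.0048), and neither call passed the series-adjusted fit. The call against basal libraries also ended without basal 1 or basal 3 (adjusted p up to 0.071) and with only the 2 groups compared.

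Several of these genes have near-identical copies, and read pairs that aligned to several places were not counted. By 50-base stretches of the annotated transcripts (GENCODE M21), 53.9% of Pgk1, 36.2% of Pgam1, 26% of Eno1, 25.8% of Pkm and 25.1% of Gapdh also occur in other genes, the last in 223 of them. Gapdh, which makes up a large share of the mRNA of most cells, was counted at 13.4 to 20.9 CPM, and its mean level per length was 8.17 to 10.96 TPM (counts corrected for exon length and library), against 436 to 780 TPM for Tpi1, the step before it. Pkm, with a like share of repeated sequence, stood at 984 to 1375 TPM, so the shares alone do not give the Gapdh level, and how many read pairs each gene lost was not measured. The differences of these 5 genes rest on the parts that are unique. In comparison 5.13% of Aldoa and 9.26% of Ldha are shared. The copies Aldoart1 and Ldha-ps2 had 6.59 to 77.6 CPM and 39.4 to 124 CPM, with their highest values in the same luminal libraries as Aldoa and Ldha, so that these counts may not be separate from those of the parent genes. The same holds for Pgam1-ps2, at 117 to 163 CPM beside 91.4 to 170 CPM for Pgam1. It also holds for Eno1b, at 100 to 242 CPM and highest in basal 2, as Eno1 was. Of Ldhb 21% and of Bnip3l 20.8% is shared, and the copy Bnip3l-ps had 33.0 to 96.2 CPM. Of Bnip3, 47.2% is shared and 22.3% of its exon bases overlap the gene Gm45507. Strand was not used in counting, so Bnip3 is uncertain in level. The same holds for Ankrd37, which overlaps Lrp2bp over 26.4% of its exon bases, and for Higd1a (22.5%).

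Genes of lactate formation and export differed by gene form. Ldha, the subunit that favours lactate formation (chr7:46490899-46505051), had 1361, 1871 and 1633 CPM in basal, 3156, 4599 and 4241 in luminal and 2580, 2308 and 2489 in mixed libraries, with no overlap between any pair of groups. Luminal exceeded basal libraries by 1.30 ± 0.20 on the log2 scale (adjusted p = 0.00043; series-adjusted 1.08, adjusted p = 0.0042). Mixed libraries differed from basal ones by 0.60 (adjusted p = 0.062; 0.70 and adjusted p = 0.017 without basal 2) and from luminal ones by -0.70 ± 0.19 (adjusted p = 0.02), the latter ending when luminal 2, luminal 3 or any of the 3 mixed libraries was left out. The former also passed under DESeq2 (adjusted p = 0.01), limma-voom (0.036), no filter on low counts (0.048) and only the 2 groups compared (0.038). Ldhb, which favours the return to pyruvate, went the other way, with 77.1, 82.8 and 81.3 CPM in basal, 45.5, 34.9 and 34.5 in luminal and 40.1, 56.1 and 61.1 in mixed libraries. Its difference between luminal and basal was -1.07 ± 0.20 (adjusted p = 0.0016; series-adjusted -0.80, adjusted p = 0.1). All mixed values of Ldhb also lay below the basal ones, by a log2 difference of -0.62 (adjusted p = 0.056; series-adjusted -0.66). That difference passed under DESeq2 (adjusted p = 0.019), limma-voom (0.037), upper quartile scaling (0.049), library size scaling (0.03) and no filter on low counts (0.04). Between mixed and luminal libraries it was 0.45 (adjusted p = 0.1) and passed without mixed 1 (adjusted p = 0.047).

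The 2 lactate carriers also differed in opposite directions. Slc16a3 (MCT4, the export carrier of glycolytic cells; chr11:120839306-120851694) had 1.27, 1.43 and 1.90 CPM in basal, 19.8, 36.7 and 32.4 in luminal and 7.04, 8.61 and 0.871 in mixed libraries. Its difference of 4.27 ± 0.67 (19.3-fold, adjusted p = 0.00056; series-adjusted 3.64, adjusted p = 0.027) was the highest of the list between luminal and basal libraries. Among mixed libraries, mixed 3 was below every basal library while the other 2 were above them, and the difference from basal of 1.84 did not pass the test (adjusted p = 0.074). Without mixed 3 it was 2.34 and passed (adjusted p = 0.0027). With all libraries it passed under DESeq2 (adjusted p = 0.018) and with no filter on low counts (adjusted p = 0.00012). Against luminal libraries it was -2.43 ± 0.61 (adjusted p = 0.013; series-adjusted -1.71, adjusted p = 0.71). Slc16a1 (MCT1, which carries lactate in either direction) had 52.5, 62.0 and 50.3 CPM in basal, 20.6, 27.8 and 31.7 in luminal and 50.4, 49.8 and 56.5 in mixed libraries. It was lower in luminal than in basal libraries (-1.04 ± 0.19, adjusted p = 0.0019; series-adjusted -1.32, adjusted p = 0.0059) and overlapped the basal values in mixed ones (-0.07 ± 0.19, adjusted p = 0.83), 0.97 ± 0.19 above luminal (adjusted p = 0.0045; series-adjusted 1.07, adjusted p = 0.16). Pdk1, which inhibits pyruvate dehydrogenase, had 40.7, 25.1 and 41.2 CPM in basal, 69.3, 69.7 and 92.2 in luminal and 40.1, 40.2 and 34.7 in mixed libraries. It was higher in luminal than in basal libraries by 1.11 ± 0.22 (adjusted p = 0.0026; series-adjusted 0.76, adjusted p = 0.071), and mixed libraries were 1.01 below luminal ones (difference -1.01 ± 0.22, adjusted p = 0.0066; series-adjusted -0.15, adjusted p = 0.95).

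The 2 HIF alpha subunits had opposite patterns in the pure aggregates. Hif1a (chr12:73948149-73994304) had 121, 115 and 87.5 CPM in basal, 239, 257 and 416 in luminal and 301, 302 and 173 in mixed libraries, so that all luminal and mixed values lay above the basal ones. The differences from basal were 1.49 ± 0.27 for luminal (adjusted p = 0.0017; series-adjusted 1.2, adjusted p = 0.069) and 1.26 ± 0.27 for mixed libraries (adjusted p = 0.012; series-adjusted 1.17, adjusted p = 0.15), the second of which ended without basal 3 (adjusted p = 0.067). Epas1 (HIF-2 alpha, chr17:87061128-87140838) had 44.4, 65.5 and 38.8 CPM in basal, 18.5, 15.1 and 15.9 in luminal and 31.6, 20.7 and 33.8 in mixed libraries. Mixed values lay between the pure groups with no overlap. Luminal libraries were lower than basal ones by a log2 difference of -1.59 ± 0.26 (adjusted p = 0.00071; series-adjusted -1.17, adjusted p = 0.051). Mixed libraries differed from basal ones by -0.79 (adjusted p = 0.06; series-adjusted -1.19, adjusted p = 0.049). That difference from basal also passed under DESeq2 (adjusted p = 0.017), DESeq2 size factors (0.048), limma-voom (0.047), upper quartile scaling (0.046), library size scaling (0.021) and no filter on low counts (0.018). The difference between mixed and luminal libraries, 0.80 ± 0.25 (adjusted p = 0.035), turned to -0.02 in the series-adjusted fit, and it ended without mixed 1, mixed 3 or any luminal library. The prolyl hydroxylase genes Egln1 and Egln3 passed no test. Egln1 ranged from 27.1 to 66.7 CPM, both extremes in basal libraries, and Egln3, itself a HIF target, from 7.68 to 26.5 CPM with overlapping groups.

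Among the HIF targets, 7 of 10 were higher in luminal than in basal aggregates, and they split in the mixed aggregates. Vegfa, the endothelial growth factor (chr17:46327919-46343295), had 31.7, 27.9 and 30.2 CPM in basal, 147, 93.1 and 118 in luminal and 32.5, 29.6 and 32.1 in mixed libraries. The mixed values overlapped the basal ones: the difference was 2.0 ± 0.19 between luminal and basal (adjusted p = 1.3e-05; series-adjusted 2.25, adjusted p = 0.00016), 0.07 ± 0.18 between mixed and basal (adjusted p = 0.83) and -1.93 ± 0.19 between mixed and luminal libraries (adjusted p = 3.5e-05; series-adjusted -2.07, adjusted p = 0.0088). Vegfa was the only gene of the list whose call between mixed and luminal libraries held in every alternative run and with each library left out. Adm, the peptide adrenomedullin, with the 2 CACGC copies upstream of its start, had 1.98, 1.87 and 0.920 CPM in basal, 19.0, 14.7 and 17.5 in luminal and 2.17, 0.984 and 5.01 in mixed libraries. It was 10.7-fold higher in luminal than in basal libraries (3.41 ± 0.56, adjusted p = 8e-04; series-adjusted 3.70, adjusted p = 0.014) and differed by 0.77 between mixed and basal ones (adjusted p = 0.36).

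Bnip3 and Bnip3l, receptors for the removal of mitochondria, were higher in both luminal and mixed aggregates than in basal ones. Bnip3 (chr7:138492565-138511248) had 8.17, 11.5 and 7.99 CPM in basal, 48.2, 66.9 and 66.4 in luminal and 27.8, 31.1 and 30.8 in mixed libraries, with 3 separate groups. The differences from basal were 2.72 ± 0.22 for luminal (6.57-fold, adjusted p = 4.7e-06; series-adjusted 2.58, adjusted p = 0.00012) and 1.70 ± 0.22 for mixed libraries (adjusted p = 0.00056; series-adjusted 1.38, adjusted p = 0.014), and mixed was lower than luminal by a log2 difference of -1.02 ± 0.21 (adjusted p = 0.0051; series-adjusted -1.2, adjusted p = 0.12). Bnip3l had 64.0, 81.6 and 60.8 CPM in basal, 124, 149 and 120 in luminal and 113, 120 and 110 in mixed libraries. It was higher in both than in basal libraries, by 0.92 ± 0.17 (adjusted p = 0.0015) and 0.73 ± 0.17 (adjusted p = 0.016; series-adjusted 0.48, adjusted p = 0.23), the second ending without basal 1, basal 3 or mixed 2. Mxi1, an antagonist of Myc, was graded like Bnip3: 42.2, 41.7 and 37.5 CPM in basal, 94.4, 82.5 and 104 in luminal and 70.1, 53.4 and 66.8 in mixed libraries. Its difference between luminal and basal was 1.21 ± 0.17 (adjusted p = 0.00024; series-adjusted 1.24, adjusted p = 0.0079). The smaller differences of mixed from basal (0.65) and from luminal libraries (-0.56), both with adjusted p = 0.026, ended in the series-adjusted fit and when any of 4 and 3 libraries, respectively, was left out.

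The remaining targets did not form 3 separate groups in the order of Bnip3 and Mxi1, though the means of Kdm3a had that order. Ndrg1, a stress-responsive gene of epithelial differentiation, had 205, 198 and 204 CPM in basal, 287, 299.7 and 309 in luminal and 131, 96.2 and 119 in mixed libraries, so the mixed values lay below both pure groups. The difference was 0.56 ± 0.16 between luminal and basal (adjusted p = 0.02; series-adjusted 0.49, adjusted p = 0.18; ending without basal 3 or luminal 3), -0.81 ± 0.16 between mixed and basal (adjusted p = 0.0075; series-adjusted -0.77, adjusted p = 0.057) and -1.37 ± 0.16 between mixed and luminal libraries (adjusted p = 0.00014; series-adjusted -1.27, adjusted p = 0.053). Ddit4 (REDD1), an inhibitor of mTORC1, was highest in basal aggregates: 65.2, 53.4 and 64.1 CPM in basal, 27.4, 38.7 and 32.6 in luminal and 27.3, 24.7 and 14.7 in mixed libraries. Its differences from basal were -0.89 ± 0.24 for luminal (adjusted p = 0.017), which ended without basal 1, basal 3, luminal 1 or luminal 3, and -1.46 ± 0.24 for mixed libraries (adjusted p = 0.0032; series-adjusted -1.27, adjusted p = 0.054). Kdm3a, a histone demethylase, had 53.0, 30.3 and 44.6 CPM in basal, 85.7, 67.6 and 102 in luminal and 53.3, 50.5 and 54.9 in mixed libraries. It was higher in luminal than in basal libraries by 1.00 ± 0.22 (adjusted p = 0.0058; series-adjusted 0.81, adjusted p = 0.08). Its difference between mixed and luminal libraries, -0.69 ± 0.22 (adjusted p = 0.037), was -0.01 series-adjusted. That call also ended with library size scaling and without basal 3, luminal 1, luminal 3 or any mixed library (adjusted p up to 0.14). Higd1a, a mitochondrial protein, ranged from 23.2 to 60.1 CPM and Ankrd37 from 0.109 to 4.05 CPM, and neither passed a test with all libraries. Without basal 2 Higd1a was higher than in basal libraries in luminal (0.80, adjusted p = 0.048) and mixed ones (0.95, adjusted p = 0.024).

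Related genes were also compared as shares of their summed TPM, which divides by the gene's summed exon length and removes the library's scale. The summed exon length need not be that of the transcripts present. Read pairs lost to copies are not corrected for, which touches the shares of Ldhb, Bnip3 and Bnip3l in particular. Hk1 made up 92.1% ± 2.87 (SD, n = 3) of the 2 hexokinases in basal, 90.6% ± 2.80 in luminal and 73.1% ± 3.47 in mixed libraries, so the share was similar in the pure aggregates although both genes differed in level. Slc16a1 made up 97.7% ± 0.644 of the 2 carriers in basal, 52.4% ± 4.15 in luminal and 91.9% ± 6.005 in mixed libraries, and in mixed 3 it was 98.7%. Pfkfb3 made up 38.7% ± 10.8, 83.4% ± 2.69 and 92.6% ± 6.80 of Pfkfb3 and Pfkfb4, and Hif1a 67.6% ± 4.85, 94.3% ± 1.83 and 88.7% ± 5.29 of the 2 alpha subunits, in the same order. Ldha was the major form everywhere, at 90.4% ± 1.07, 97.9% ± 0.765 and 95.7% ± 0.997 of Ldha and Ldhb. Bnip3 made up 18.5% ± 0.746, 44.0% ± 4.32 and 30.8% ± 1.39 of Bnip3 and Bnip3l. Among the phosphofructokinase subunits Pfkl was the major form per exon length in each kind, at 67.5% ± 3.54, 70.0% ± 0.858 and 62.0% ± 4.58. Its summed exon length was 6675 bases against 13401 for Pfkp, and the order in mixed 3 depends on these lengths. There the raw counts were 1733 for Pfkl and 1908 for Pfkp. In mixed 1 and mixed 2 Pfkl was also the higher by raw counts, at 2061 against 1499 and 2464 against 1408. In exact permutation tests (two-sided) of 39 differences of shares, 26 reached p = 0.1, the smallest that 3 against 3 libraries allow (adjusted p = 0.15), so none of them could pass 0.05.

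**Figure D4:**
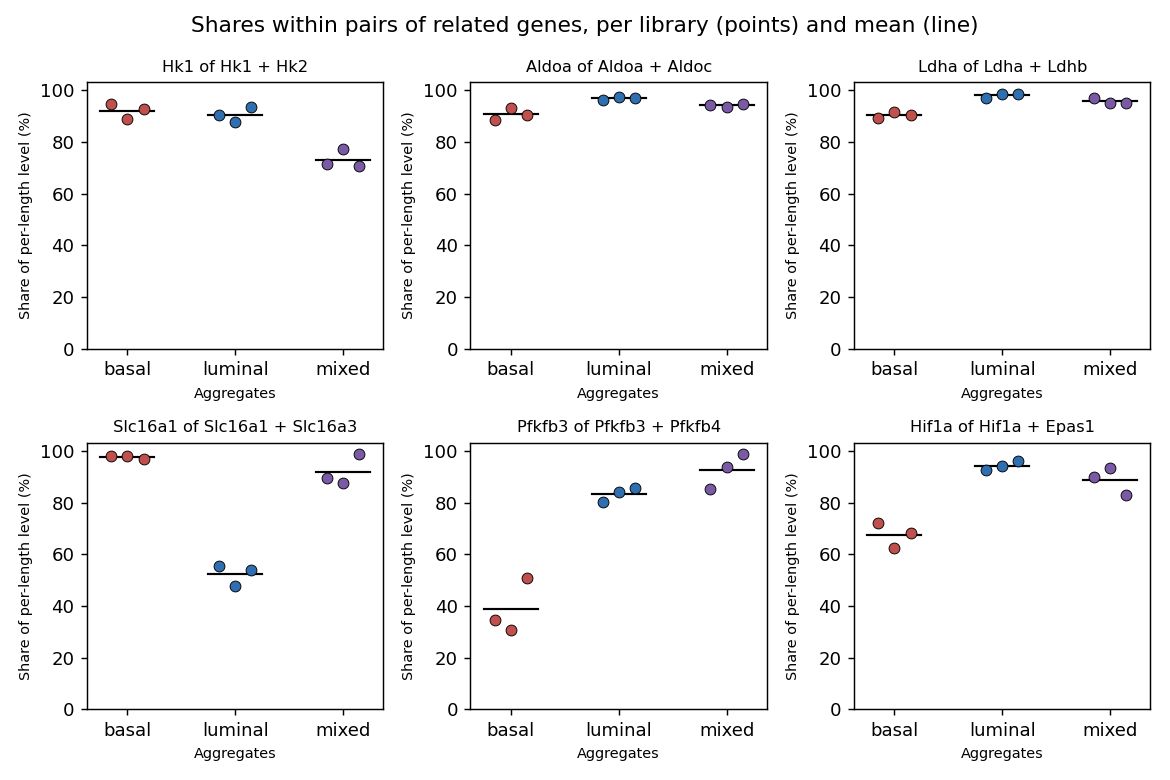
Share of the first-named gene in the summed TPM of each pair (y axes, percent, from 0), by library (points) and group mean (lines). Hk1 falls to between 70.7% and 77.1% in the mixed libraries, while Slc16a1 lies at 47.7% to 55.5% in luminal libraries and above 87% elsewhere.

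For the 18 genes called between luminal and basal aggregates at a log2 difference of 1 or more in size, the mean CPM of the mixed libraries was placed on the way from the luminal mean (0%) to the basal mean (100%). The median position was 70.4%, 13 genes lay on the basal side of 50% and 5 on the luminal side. Close to basal were Vegfa (98.4%), Hk1 (95.2%), Pdk1 (93.6%), Adm (92.7%), Slc16a1 (90.5%) and Pfkp (90.3%), and Pfkl lay beyond the basal mean (128%). In between were Pfkfb3 (76%), Ldha (64.8%), Aldoa (62.1%), Bnip3 (59.7%) and Mxi1 (56.8%). Towards luminal were Epas1 (37%), Ldhb (33.5%), Hif1a (23.3%) and Aldoc (13.2%), and Hk2 lay beyond the luminal mean (-21%). With the code series as a term, the median was 64.8% and 11 genes lay on the basal side. Pdk1 (24.4%) and Pfkp (23.3%) then lay on the luminal side, Epas1 was at -0.925% and Hif1a at 3.81%, while Vegfa (96.6%), Adm (96.2%), Hk1 (75.9%) and Slc16a1 (73.8%) stayed on the basal side. Single mixed libraries lay on both sides of 50% for Hif1a (1.74%, 1.1% and 67%), Ldhb (4.11%, 42.1% and 54.2%), Epas1 and Mxi1, and on the same side for the other 14 genes. The labels give a mixture of 50% but not the share of RNA that each cell type contributed, so a position other than 50% is not by itself a change in either cell type.

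**Figure D5:**
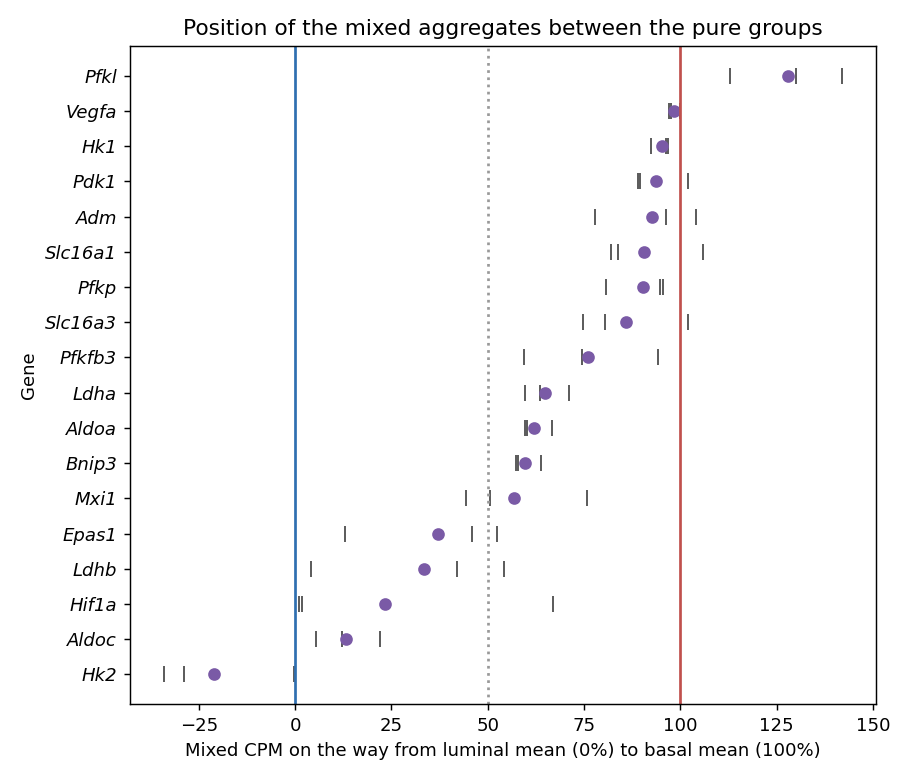
Position of the mixed mean CPM between the luminal mean (0%, blue line) and the basal mean (100%, red line), in percent, for 18 genes ordered by position, with ticks for the single mixed libraries and a dotted line at 50%. The points run from Hk2 at -21% to Pfkl at 128%.

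No gene of the list was called above or below both pure groups at an adjusted p under 0.05, against 9 genes (0.0499%) above and 7 (0.0388%) below among all 18051. At an unadjusted p under 0.05, 7 genes of the list passed, all of them below both pure groups (Slc2a1, Eno2, Pfkfb4, Ddit4, Pfkl, Ndrg1 and Pfkm), beside 2051 genes (11.4%) of all in either direction. Ndrg1 had the lowest adjusted p of these, 0.1. Without basal 2, the only basal library in the code series of the mixed ones, 671 of all genes (3.54%) were called below both pure groups and 580 above, and 4 genes of the list were among the former: Ndrg1 (adjusted p = 0.014), Eno2 (0.032), Pfkm (0.039) and Pfkl (0.044). With no filter on low counts 600 of 33929 genes (1.77%) were called below, and 3 of the list: Ndrg1 (adjusted p = 0.0064), Eno2 (0.016) and Pfkfb4 (0.019).

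Further genes of the same pathways were counted from 3 lists. Of 46 other tested genes of sugar entry, glycolysis and pyruvate handling, luminal aggregates had 9 higher (19.6%) and 7 lower (15.2%) than basal ones, and of 27 genes of the pentose phosphate pathway and glycogen 9 were higher (33.3%) and 3 lower (11.1%), beside 12.8% and 14.4% of all genes. The first of these lists thus lay near the share of all genes. Pdk4, which like Pdk1 inhibits pyruvate dehydrogenase, was higher by 2.75 ± 0.60 (adjusted p = 0.0051; series-adjusted 2.20, adjusted p = 0.14), and Galm, which interconverts the forms of sugars, by 2.40 ± 0.28 (adjusted p = 6.7e-05; series-adjusted 2.73, adjusted p = 5e-04). The luminal libraries varied widely for Pdk4, which was at 4.18 ± 1.21 CPM in basal and 28.1 ± 24.1 in luminal libraries (SD, n = 3). Ppp1r3c, which targets a phosphatase to glycogen, was at 6.13 ± 1.17 CPM in basal, 228 ± 53.7 in luminal and 44.0 ± 13.97 in mixed libraries (SD, n = 3), a log2 difference of 5.22 ± 0.31 between luminal and basal (adjusted p = 3.9e-07; series-adjusted 5.38, adjusted p = 3.3e-05). Shpk, sedoheptulose kinase, was higher by 3.58 ± 0.34 (adjusted p = 1.2e-05). Lower were Prps2 (-0.92 ± 0.22, adjusted p = 0.0081) and Prps1 (-0.54 ± 0.16, adjusted p = 0.023), which make the ribose precursor of nucleotides, and neither passed the series-adjusted test. The insulin-responsive glucose transporter Slc2a4 was highest in basal libraries, at 58.7 ± 19.1 CPM in basal, 3.16 ± 0.686 in luminal and 15.2 ± 4.71 in mixed libraries (-4.21 ± 0.36, adjusted p = 5.8e-06). Emb (embigin), a chaperone that takes monocarboxylate carriers to the membrane, was lower in luminal libraries by a log2 difference of -4.39 ± 0.34 (adjusted p = 2.9e-06), the same direction as Slc16a1. Of 54 other hypoxia-response genes, luminal aggregates had 17 higher (31.5%) and 10 lower (18.5%) than basal ones.

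In that list Angptl4 was at 64.2 ± 32.1 CPM in basal, 427 ± 81.3 in luminal and 72.5 ± 14.3 in mixed libraries, the order of Vegfa. Its log2 difference between luminal and basal was 2.73 ± 0.37 (adjusted p = 2e-04). Cited2, which competes with HIF for a coactivator, was higher in luminal than in basal libraries by 2.46 ± 0.22 (adjusted p = 8e-06). Against that direction, Plod2, a collagen-modifying HIF target, was lower (-2.22 ± 0.27, adjusted p = 7.7e-05), and so was Car9, a carbonic anhydrase widely used as a marker of hypoxia (-1.32 ± 0.35, adjusted p = 0.015; series-adjusted -1.10, adjusted p = 0.21). Car9 was at 32.1 ± 11.2 CPM in basal, 12.9 ± 0.861 in luminal and 8.93 ± 4.15 in mixed libraries. In mixed aggregates 9 genes of this list were higher (16.7%) and 19 lower (35.2%) than in luminal ones, beside 15.2% and 14.2% of all genes, and 7 higher (13%) and 6 lower (11.1%) than in basal ones, beside 6.39% and 7.33%. Each comparison held genes called in both directions.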

How the data were processed

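Raw counts per gene name, with the summed exon length, were deposited by the authors as a single table. Reads were trimmed with Trim Galore, per the submitters' processing notes, which also name Subread, and were counted with featureCounts 2.0.1 on mm39 as read pairs over exons by gene name, without strand and without multi-mapping reads, per the file headers. The libraries were stranded mRNA preparations from total RNA, per the labels. The annotation release is not given in the sources used here.

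The fits used edgeR 4.0.16 under R 4.3.3. Genes passed filterByExpr, scaling was TMM, and all 9 libraries entered 1 fit with the group as factor (6 residual degrees of freedom; 4 with the code series). Contrasts used the robust quasi-likelihood test, two-sided, with Benjamini-Hochberg adjustment over 18051 genes at 0.05. Standard errors are those implied by the test statistic. Genes outside both pure groups needed 1 sign in both contrasts, with the larger p adjusted. CPM carry no pseudocount, except 1 CPM in the heat map. TPM were computed from counts and exon length. Values of every library are given for the genes called in any comparison (as counts for Eno2), and wider-list genes are the highest and lowest called differences with a mean of at least 10 CPM. On simulated counts, in the comparison of luminal with basal libraries (17335 genes, 100 changed per fold), 20% of 2-fold and 58% of 4-fold changes were recovered, with 3.7% false calls. Same-numbered libraries were not more alike (sensitivity to this is given below). The genes and lists were chosen with earlier results of these data known. DESeq2 1.42.0 and limma 3.58.1 (voom) were alternatives.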

Additional observations from a re-analysis of the deposited data

How the results depend on the processing

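Of 2331 values of single genes under 21 alternatives, 2176 stayed on the same side of the threshold, 106 no longer passed it and 48 newly passed it. The last 1 reversed: Epas1 between mixed and luminal libraries, at -0.0168 (log2) with the code series as a term. Among the 2176 are 49 values that changed direction but passed the threshold in neither fit. Between luminal and basal libraries 13 of the 22 calls held throughout, between mixed and basal 4 of 12, and between mixed and luminal 1 of 20. Outside the code series and the test against a 1.5-fold change these were 21, 9 and 18, not counting the fits with a single library left out. With the code series as a term the genes lower in luminal than in basal libraries numbered 1, beside 6.8% of all genes. The fit has fewer residual degrees of freedom, and the shares of all genes fell too, here from 14.4%. For mixed against basal libraries 4 were higher and 2 lower (2.93% and 1.79% of all genes), and for mixed against luminal ones 0 and 2 (2.05% and 0.67%). Against a 1.5-fold change these last 4 counts were 4, 2, 0 and 9, beside 2.83%, 2.15%, 7.09% and 5.34% of all genes.

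Genes lower in mixed than in basal libraries numbered 4 in the report, beside 7.33% of all genes tested. They numbered 7 with DESeq2 (13% of all genes), with limma-voom (9.16%) and with library size scaling (10.4%). With no filter on low counts they numbered 9 (6.45%), and with only the 2 groups compared 2 (5.58%). With basal 2 and mixed 3 both left out, an alternative added after the data were seen, they numbered 8 (14%). With no filter 3 genes lay below both pure groups (1.77% of all genes). Genes higher in mixed than in luminal libraries numbered 1 with limma-voom (15.9% of all genes) and 1 with the replicate block, the title number as a term (14.9%). The numbers did not pair the libraries (r of group-centred values from -0.166 to 0.201, with 4 of 9 libraries closest to their own number), and the block changed no other count by over 1.5 times. With each library left out in turn, genes higher in mixed than in basal numbered 5 to 10 and lower 2 to 6, the lowest of each without basal 1 or basal 3. The shares of all genes moved too, from 2.95% to 13.9% and from 2.14% to 13.1%, lowest without basal 3 and highest without basal 2. Genes higher in mixed than in luminal libraries numbered 1 to 2 (8.18% to 17.9% of all genes). Those below both pure groups numbered 0 to 4 (0% to 3.54% of all genes), the highest without basal 2. The position of the mixed mean, recomputed with the code series as a term after the data were seen, moved to the other side of 50% for 2 of 18 genes, Pdk1 and Pfkp. The cause was not tested.

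Library size scaling moved the share of higher among all called genes from 47% to 35% for luminal against basal libraries and from 46.5% to 33.6% for mixed against basal ones, and the median gene to -0.17 and -0.22, so members near 0 take their sign from the scaling. Shares of related genes changed sign in 5 of 234 values with a library left out. The limit set by 3 counts covers counting error only, and read pairs carried no molecular identifiers in the sources used here. In the simulated counts 100 genes per fold were changed, while 2304 higher and 2595 lower genes were called between luminal and basal libraries here. With so few changed genes the adjustment is stricter, so the shares recovered there do not measure the power in these data. A gene that did not pass the test may still differ.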
